A study of Rattus norvegicus with 8 samples.

Results

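Claudins, cadherins and protocadherins are membrane proteins through which neighbouring cells hold on to each other. Claudins are the strand-forming proteins of tight junctions and set which ions pass between epithelial cells. Classical cadherins bind the same cadherin on the next cell through calcium-dependent repeats and are tied to actin by catenins. They form a type I set (E-, P-, N-, R- and M-cadherin) and a type II set. Protocadherins carry the same kind of repeats without the catenin-binding tail. Most of them lie in 3 tandem clusters, alpha, beta and gamma, in which each variable exon has its own promoter, while others are single genes. In the ovary, N-cadherin joins granulosa cells of a follicle and E-cadherin is typical of the surface epithelium.

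The genes were taken by name, as every non-control probe called Cldn, Cdh or Pcdh on the array, except Cdh5 and Cdh16. This gave 107 of the 30367 probes, standing for 94 genes: 22 claudins, 19 cadherins and 53 protocadherins. RNA of whole rat ovary was hybridised to 1-colour Agilent arrays, 4 labelled control and 4 labelled PMSG. PMSG, pregnant mare serum gonadotropin, acts mainly like follicle-stimulating hormone. Females aged 26 days received 50 IU of it under the skin dissolved in buffered albumin (0.2 ml), or the vehicle alone (0 IU), and ovaries were taken 48 h later, at 28 days. The labels do not say whether each array is 1 animal, so p-values measure the spread between these samples, which may be technical.

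Each level below is the log2 signal of a gene's brightest probe minus the 75th percentile of its array, and each difference is the PMSG-labelled mean minus the control-labelled mean with its standard error (SE, 4 arrays per label). "Passed" means an adjusted p under 0.05 in limma, adjusted by Benjamini-Hochberg across the 25303 probes tested. A probe was tested when it was well above background on at least 4 of the 8 arrays. Directions follow the sample titles alone, and Star and Cyp11a1, which gonadotropins are known to raise, were lower on the arrays labelled PMSG (log2 differences of -2.75 and -3.36), as was Lhcgr (-1.93), while Amh was higher (3.03). Whether the labels were exchanged was not tested; if they were, every direction below would turn. The arrays labelled PMSG spread more, with a median SD of 0.27 per probe against 0.16, and array 4 of that label stood apart in several of the gene groups. Between 80.8% and 84.6% of probes were well above background on each array, and no spot was saturated. Values of different genes are not compared with each other, since probes differ in brightness. In whole ovary, fewer cells of a type and less RNA per cell cannot be told apart.

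Of the 94 genes, 80 could be tested and 24 passed, 17 of them higher and 7 lower on the arrays labelled PMSG. That is 30% of the tested members, beside 34.5% of all 21922 genes tested the same way (18% higher and 16.5% lower), so the share that changed was no larger than the background. The median difference was 0.36 over the 80 members and 0.12 over all genes. The members' median was 0.17 with quantile normalization, 0.19 with median centring and 0.22 with normexp correction, beside 0.04, -0.05 and 0.12 over all genes. The fitted difference reached 2-fold in 11 members, 8 higher and 3 lower, beside 12% of all genes (7.33% higher and 4.67% lower). One of the 8 is Cldn20, which was in the background on every control-labelled array and has a bound of only 1.39-fold; 7 members reached 2-fold with normexp correction. The 4 values of one label lay wholly above or below those of the other for 22 members, 15 higher (Cldn20 among them) and 7 lower, beside 37% of all genes. Of the members that passed, 70.8% were higher, beside 52.3% of all genes that passed. This split was 57.7% under quantile normalization and 60% under median centring, which shifts the median of all genes by -0.17. Over all genes that passed, it was 48% and 35.3% under these settings. Without PMSG-labelled array 4, 41 members passed, 31 of them higher, and the share of all genes that passed rose to 45.2%.

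By family, beside 18% of all genes that were higher and 16.5% that were lower, claudins rose in 8 of 20 tested genes and fell in 1. Clustered protocadherins rose in 6 of 36 and fell in 0. Single-gene protocadherins fell in 4 of 11 and rose in 0. Cadherins were divided, with 3 of 13 higher and 2 lower. The differences between families were not tested.

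**Figure D1:**
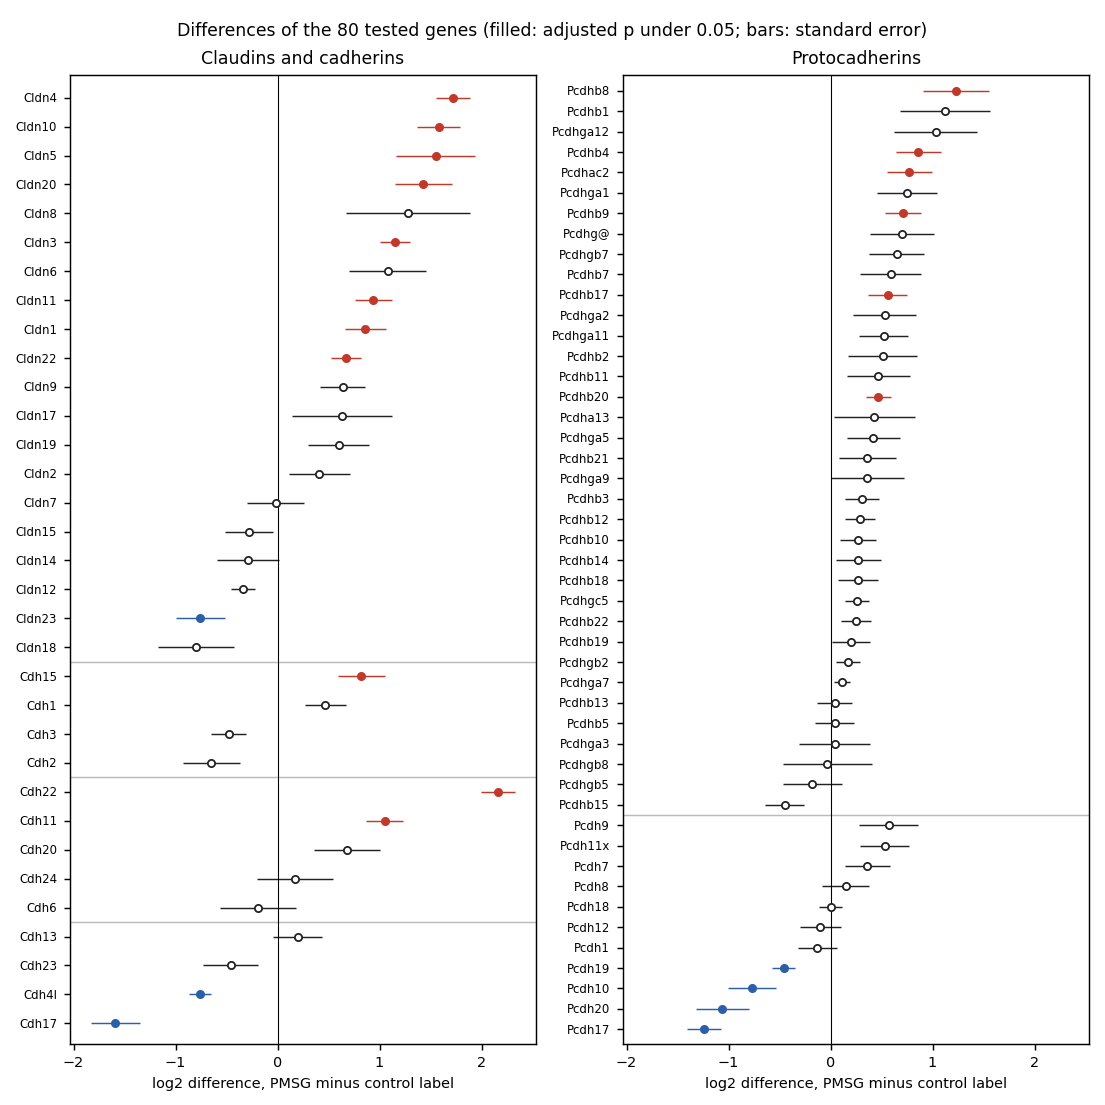
Log2 difference (PMSG label minus control label, horizontal axis) of each of the 80 tested genes, with its standard error, grouped by family with a grey line between groups; filled points passed, red for higher and blue for lower. Claudins run from -0.8 to 1.72, the type II cadherin Cdh22 reaches 2.16, clustered protocadherins lie mostly right of 0, and the 4 single-gene protocadherins that passed lie left of it.

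Sequences of some probes and promoters of these genes are shown, and the differences were not tested against them. The first set holds 60-base probes for a claudin that rose in a clear step, for a claudin whose control values spread widely, and for a cadherin whose probes disagreed. Positions are on rn4, the build named in the file headers, and no rn4 gene annotation was used here. The Cldn10 probe maps to the plus strand of chr15:103779967-103792471, a span of 12505 bases for 60 bases of probe, so it crosses an intron. The Cldn5 probe maps to the minus strand of chr11_random:1224740-1224799. The brighter Cdh4l probe maps to the plus strand of chr3:168979305-168979364, and the dimmer one lies further along the same strand at chr3:168979762-168979821.
Cldn10: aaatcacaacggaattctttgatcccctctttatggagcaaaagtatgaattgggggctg
Cldn5: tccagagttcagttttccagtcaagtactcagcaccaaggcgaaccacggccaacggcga
Cdh4l: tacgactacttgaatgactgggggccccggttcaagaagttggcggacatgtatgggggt

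The second set comes from the promoters of the beta protocadherins, where the known conserved element of clustered protocadherin promoters has the core CGCT and is bound by the insulator protein CTCF. RefSeq promoters of the GRCr8 build matched 67 of the 94 members by symbol, and the 250 bases before each gene start were searched on both strands. The word TGGCGCTG, chosen after these promoters had been looked at, was found in 14 of 16 beta promoters (87.5%) and in 0 of 12 gamma promoters, beside 1.15% of all 33469 promoters. It began 44 to 227 bases before the gene start, with a median of 66.5. Each line gives 48 bases around it, with the word in capitals: first the 4 beta genes with a promoter entry that passed, then the 2 holding the word with the smallest tested differences.
Pcdhb8: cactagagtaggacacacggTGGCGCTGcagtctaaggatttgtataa
Pcdhb4: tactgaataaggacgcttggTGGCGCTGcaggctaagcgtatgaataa
Pcdhb9: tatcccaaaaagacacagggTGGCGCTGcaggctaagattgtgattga
Pcdhb20: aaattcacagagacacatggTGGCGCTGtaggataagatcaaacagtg
Pcdhb5: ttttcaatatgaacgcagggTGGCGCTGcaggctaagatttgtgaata
Pcdhb19: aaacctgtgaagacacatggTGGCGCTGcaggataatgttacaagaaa

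These windows lie on the plus strand of chromosome 18, at chr18:29339250-29339297 for Pcdhb8, chr18:29292203-29292250 for Pcdhb4, chr18:29379240-29379287 for Pcdhb9, chr18:29485802-29485849 for Pcdhb20, chr18:29302396-29302443 for Pcdhb5 and chr18:29478756-29478803 for Pcdhb19. All 4 printed genes that passed hold the word, and so do 9 tested beta genes that did not pass. The 2 beta promoters without it belong to Pcdhb1 (difference 1.12 ± 0.44 SE, adjusted p = 0.0826) and Pcdhb15 (-0.45 ± 0.19, adjusted p = 0.0963).

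The third is the promoter of Cldn3, shown because it is a claudin that rose and holds both an E-box, CACCTG, the site type bound by the Snail and Zeb repressors of epithelial genes, and a GC box, GGGCGG, the site type of Sp1. Both are in capitals, in either orientation, in the 250 bases before the gene start on the minus strand at chr12:27346548-27346797.
Cldn3: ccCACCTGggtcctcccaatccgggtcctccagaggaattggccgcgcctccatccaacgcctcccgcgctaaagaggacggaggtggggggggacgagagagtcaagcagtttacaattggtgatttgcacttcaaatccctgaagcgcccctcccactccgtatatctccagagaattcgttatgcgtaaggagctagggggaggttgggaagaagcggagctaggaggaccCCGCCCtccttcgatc

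The E-box was found in 1 of 7 matched claudins that rose and in 4 of 18 matched claudins (22.2%), beside 15.9% of all promoters. The GC box was found in 4 of those 7 and in 9 of the 18 (50%), beside 30.5% of all promoters. The cAMP response element TGACGTCA was present in 1 claudin promoter, that of Cldn7, beside 1.59% of all promoters. The word CAAGGTCA, the site of steroidogenic factor 1, was in 0 of the 67 member promoters, beside 1.33% of all promoters.

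Claudins rose on the arrays labelled PMSG more often than they fell. The 8 that rose were Cldn4, Cldn10, Cldn5, Cldn20, Cldn3, Cldn11, Cldn1 and Cldn22. The fitted difference was at least 2-fold for 5 of them, one being Cldn20, for which only a smaller bound can be given. Cldn23 alone fell. The median over 20 tested claudins was 0.65, or 0.64 with Cldn20 at its bound, against 0.12 over all genes. It was 0.31 with normexp correction.

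Cldn4, a claudin of simple epithelia that limits sodium passage, was read by a probe on chr12:22817873-22817932. Its level was -1.63, -1.62, -1.35 and -1.77 on control-labelled arrays 1 to 4, and 0.09, 0.09, -0.19 and 0.54 on PMSG-labelled arrays 1 to 4. All PMSG-labelled arrays lay above all controls, by 1.72 ± 0.17 (SE), which is 3.3-fold (adjusted p = 0.000263). Cldn3, the neighbour of Cldn4 in the genome and another epithelial barrier claudin, read 2.34, 2.3, 2.69 and 2.28 against 3.4, 3.41, 3.54 and 3.86. The labels again did not overlap, and the difference was 1.15 ± 0.15 (adjusted p = 0.000728). The adjacent pair therefore rose together, by 3.3-fold and 2.22-fold.

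Cldn10 forms ion-selective pores in kidney and glands. It read -1.79, -1.93, -1.52 and -1.78 on the control-labelled arrays and -0.53, -0.42, -0.17 and 0.41 on those labelled PMSG. The rise was 1.58 ± 0.21 (adjusted p = 0.000877), or 2.99-fold, without overlap. Cldn5 is the main claudin of endothelium. Its control values were 0.21, 0.83, 1.79 and -0.01, and its PMSG-labelled values 2.06, 1.85, 2.4 and 2.73. Control-labelled array 3 came within reach of the lowest PMSG-labelled array, so the rise of 1.55 had an SE of 0.39, the widest of the claudins named here with all arrays above background (adjusted p = 0.0167).

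Endothelial markers are given beside Cldn5. Of 12 markers, 1 was higher (Vwf) and 5 were lower (Tek, Flt1, Kdr, Eng and Esam), beside 18% and 16.5% of all genes. The mean level of the 12 was -1.01 to -0.82 on control-labelled arrays and -1.35 to -1.13 on PMSG-labelled ones. The part of endothelial cells in the Cldn5 difference was not tested. Cdh5, the endothelial cadherin, differed by 0.54 ± 0.28 and did not pass (adjusted p = 0.175). Pcdh12, an endothelial protocadherin, read -4.97, -4.64, -4.28 and -4.9 against -4.68, -4.91, -4.46 and -5.15. Its labels overlapped, with a difference of -0.1 ± 0.2 (adjusted p = 0.713).

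Cldn11, which seals Sertoli cell and myelin junctions, read -3.34, -3.15, -3.38 and -3.54 on control-labelled arrays and -2.19, -2.38, -2.18 and -2.92 on PMSG-labelled ones. PMSG-labelled array 4 was the lowest of its label and still above every control, with a difference of 0.94 ± 0.18 (adjusted p = 0.00505). Cldn1, a barrier claudin of epidermis and other epithelia, read 1.12, 1.6, 1.19 and 1.27 against 1.97, 1.81, 2.17 and 2.68. It rose without overlap by 0.86 ± 0.2 (adjusted p = 0.0125), and lost its call under median centring (adjusted p = 0.0617, within a range of 0.00584 to 0.0617 over 18 alternatives).

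Cldn20 was well above background on 0 control-labelled arrays and on all 4 labelled PMSG, so it has only a bound. It was tested only through the arrays labelled PMSG, so its adjusted p of 0.00519 sets signal against background. It was at least 1.39-fold higher under the PMSG label, the floor being, on each control array, the higher of its lowest signal well above background and the probe's own. Its measured values were -7.41, -6.7, -7.49 and -8.22 on control-labelled arrays, where they lie in the background, and -5.96, -6.09, -6.03 and -6.02 on PMSG-labelled ones. Cldn22, whose neighbour Cldn24 was above background on 0 arrays, read -1.58, -1.89, -1.51 and -2.04 against -1.3, -1.09, -1.09 and -0.86. It rose by 0.67 ± 0.15 (adjusted p = 0.0112) and did not pass under median centring.

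Cldn23 read -0.88, 0.09, -0.25 and -0.77 on control-labelled arrays and -1.33, -1.56, -1.04 and -0.92 on PMSG-labelled ones. The gap between labels was narrow, and the fall of 0.76 ± 0.24 (difference -0.76, adjusted p = 0.0431) was lost without control-labelled array 2 or 3, or PMSG-labelled array 1, 2 or 3, and with no filter on dim probes or the slide row as a block. The other 11 tested claudins did not pass, 6 with positive and 5 with negative differences. Cldn7, another epithelial claudin, differed by -0.02 ± 0.28 (adjusted p = 0.956). Cldn8 (1.28 ± 0.61) and Cldn6 (1.08 ± 0.38) had large differences with wide errors (adjusted p = 0.136 and 0.0614). The 2 probes of Cldn19 had opposite signs, 0.6 ± 0.3 and -0.36 ± 0.18, and neither passed. Cldn16 and Cldn24 were above background on 0 arrays, and the lower claudin count went from 1 to 5 under quantile normalization. Over all genes 36% passed under that normalization, 48% of them higher, beside 34.5% and 52.3% without it.

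Epithelial marker lists are given beside the claudins. Of 9 oviduct and ciliated epithelium markers, all 8 tested rose, and their mean level was -2.37 to -1.63 on control-labelled arrays and -0.39 to 0.15 on PMSG-labelled ones; Muc16 was above background on 0 arrays. Surface epithelium markers rose in 4 of 7 (-0.67 to -0.3 against 0.05 to 0.28), and simple epithelium markers in 3 of 11 (0.39 to 0.87 against 0.65 to 1.4, with overlap), beside 18% of all genes. The oviduct and simple epithelium means were highest on PMSG-labelled array 4. The part of these cells in the claudin differences was not tested.

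**Figure D2:**
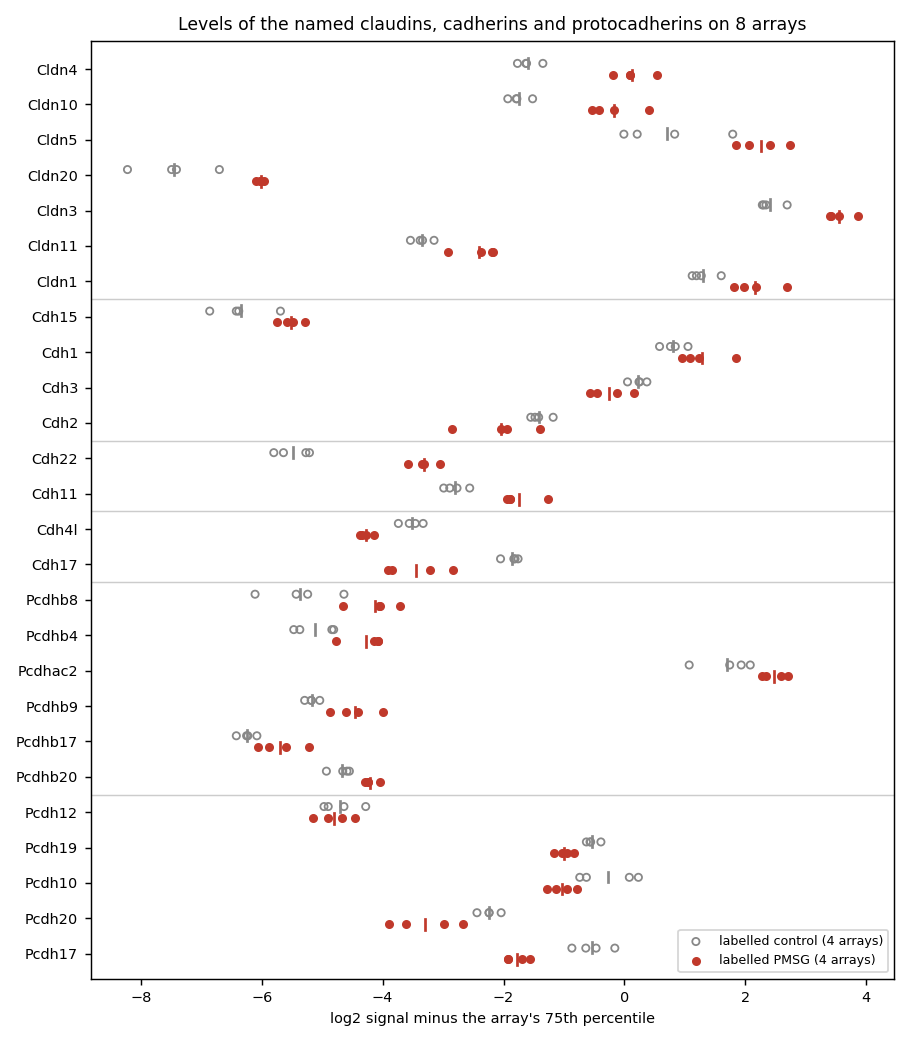
Level (log2 signal minus the 75th percentile of the array, horizontal axis) of the 26 named genes on each array, open grey for the control label and red for PMSG, with a short line at each mean and grey lines between families. Cldn4, Cldn10, Cldn3, Cdh22 and Cdh11 separate fully to the right, Cdh17 and Pcdh17 fully to the left, while Cdh1, Cdh2, Cdh3 and Pcdh12 overlap.

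Among type I classical cadherins, those best known in the ovary did not pass. Cdh1, E-cadherin, read 0.84, 0.76, 1.05 and 0.58 on control-labelled arrays and 0.95, 1.24, 1.09 and 1.84 on PMSG-labelled ones. PMSG-labelled arrays 2, 3 and 4 lay above every control, array 4 by the most, and array 1 lay among the controls. The difference was 0.47 ± 0.2 (adjusted p = 0.106), and 0.29 without PMSG-labelled array 4. Cdh3, P-cadherin, which lies beside Cdh1 in the genome, had the opposite sign. It read 0.24, 0.05, 0.37 and 0.25 against -0.57, -0.13, -0.45 and 0.16, a difference of -0.48 ± 0.17 (adjusted p = 0.0617).

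Cdh2, N-cadherin, read -1.48, -1.18, -1.55 and -1.42 on control-labelled arrays. On PMSG-labelled arrays it read -1.94, -2.04, -2.86 and -1.39, so that 3 arrays lay below every control and array 4 lay among them. The difference was -0.65 ± 0.28 (adjusted p = 0.108). Without PMSG-labelled array 4, Cdh2 and Cdh3 both passed as lower (adjusted p = 0.0208 and 0.0108, the lowest over 18 alternatives, whose highest were 0.219 and 0.14), as they did with array weights. Granulosa markers, of the cells that N-cadherin joins, were higher in 3 and lower in 1 of 9 tested, beside 18% and 16.5% of all genes. The mean level of these markers was 0.59 to 1.27 on control-labelled and 1.1 to 1.7 on PMSG-labelled arrays. The part of granulosa cells in the Cdh2 difference was not tested.

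Cdh15, the M-cadherin of muscle precursors, passed as higher at 0.82 ± 0.23 (adjusted p = 0.0288) but rested on dim signal. Its values were -6.86, -6.38, -6.42 and -5.69 on control-labelled arrays, 2 of them above background, and -5.29, -5.58, -5.48 and -5.74 on PMSG-labelled ones. The labels overlapped, and the difference was 0.24 with normexp correction and 0.37 in the authors' deposited values. The call was lost under 11 of 17 alternatives, with adjusted p from 0.00521 to 0.549, among them leaving out control-labelled array 1, 2 or 3 or PMSG-labelled array 1, 2 or 3.

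Of the type II cadherins, 2 of 5 tested genes rose and 0 fell, beside 18% of all genes that rose and 16.5% that fell. Cdh22, a cadherin known from pituitary and brain, read -5.27, -5.8, -5.21 and -5.64 against -3.31, -3.05, -3.58 and -3.35. The labels were far apart, by 2.16 ± 0.17 or 4.46-fold (adjusted p = 0.000119). The difference was 1.03 with normexp correction. Its probe has no rn4 position in the files. Cdh11, the cadherin of mesenchymal cells and osteoblasts, read -2.99, -2.77, -2.56 and -2.89 against -1.89, -1.89, -1.95 and -1.27. It rose without overlap by 1.05 ± 0.18 (adjusted p = 0.00255), and its other probe rose by 1.04 ± 0.11 (adjusted p = 0.000398).

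Cdh20, Cdh24 and Cdh6 were tested and did not pass, with differences of 0.68 ± 0.32, 0.17 ± 0.37 and -0.19 ± 0.37. The other 5 type II cadherins were not tested. Cdh8 and Cdh19 were above background on 0 arrays, Cdh9 and Cdh10 on 1, and Cdh7 on 2 arrays labelled PMSG and 0 labelled control. Fibroblast and smooth muscle markers, of cells that carry Cdh11, were higher in 4 of 10 and lower in 0, with mean levels of 3.42 to 3.85 and 3.57 to 4.09. Schwann cell markers, of a cell type that carries Cdh19, rose in 4 of 8 (-3.08 to -2.48 against -2.46 to -1.81). Both counts stand beside 18% of all genes that were higher and 16.5% that were lower. The part of these cells in the cadherin differences was not tested.

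Of the remaining cadherins, 2 fell. Cdh17, the liver-intestine cadherin, which binds no catenins, read -1.81, -2.05, -1.76 and -1.83 on control-labelled arrays and -3.22, -2.84, -3.91 and -3.85 on PMSG-labelled ones. It fell by 1.59 ± 0.24 (difference -1.59, adjusted p = 0.00165), 3.01-fold, with no overlap. Cdh16, its kidney relative left out of the gene set by name, went the other way, at 2.51 ± 0.26 (adjusted p = 0.000336).

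Cdh4l is described in the array files as cadherin 4, or R-cadherin. R-cadherin is a type I cadherin, but Cdh4l was grouped by its array name with the remaining cadherins. Cdh4l read -3.74, -3.56, -3.46 and -3.33 against -4.15, -4.37, -4.34 and -4.28. The difference on this probe was -0.76 ± 0.11 (adjusted p = 0.00163). The dimmer probe of Cdh4l, a short way along the same strand, differed by 0.6 ± 0.24 with the opposite sign (adjusted p = 0.0849), and the mean of both probes was -0.08 (adjusted p = 0.669). The direction of Cdh4l therefore depends on the probe, and on the brighter one the difference was -0.33 with normexp correction. Cdh13, the cadherin anchored by a lipid, also split: its brightest probe differed by 0.2 ± 0.24 (adjusted p = 0.522) and the other rose by 0.65 ± 0.2 (adjusted p = 0.0339). Cdh23, a tip-link cadherin of hair cells, differed by -0.46 ± 0.27, and Cdh26 was above background on 0 arrays. Leaving out PMSG-labelled array 4 raised the count of lower cadherins from 2 to 4, and dropping the filter on dim probes raised that of higher cadherins from 3 to 5. The share of all genes that passed was 45.2% and 27.2% in these settings, beside 34.5%.

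Most clustered protocadherins had small differences, and most of these were positive. Of 42 genes, 36 were tested and 6 passed, all higher, beside 18% of all genes that passed as higher. The median difference was 0.39 against 0.12 over all genes. Of the 30 that did not pass, 27 had a positive difference, beside 8926 of the 14361 over all genes that did not pass. The median was 0.19 with quantile normalization, 0.22 with median centring and 0.23 with normexp correction. By cluster, 1 of 2 tested alpha genes, 5 of 20 beta genes and 0 of 14 gamma genes passed. The medians were 0.6, 0.34 and 0.39, so the gamma genes had no smaller a median than the beta genes.

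Pcdhb8 had the largest difference of the 6, at 1.23 ± 0.32 (adjusted p = 0.0182). It read -6.11, -5.43, -4.64 and -5.24 on control-labelled arrays and -3.72, -4.66, -4.06 and -4.04 on PMSG-labelled ones. Control-labelled array 3 lay just above PMSG-labelled array 2, so the labels overlapped, and the call was lost in the authors' deposited values (adjusted p = 0.0826, the highest over the alternatives, the lowest being 0.00831). Pcdhb4 read -5.47, -4.81, -4.84 and -5.37 against -4.08, -4.07, -4.15 and -4.77. Its PMSG-labelled array 4 sat next to the controls, and the difference was 0.86 ± 0.22 (adjusted p = 0.0181), which was lost without control-labelled array 4.

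Pcdhb9 read -5.18, -5.04, -5.18 and -5.29 against -4.4, -4.6, -3.99 and -4.87, a rise of 0.71 ± 0.18 (adjusted p = 0.0179) that was also lost without control-labelled array 4 and with normexp correction. Its second probe was above background on 1 array and was not tested. Pcdhb20 rose on both probes, by 0.47 ± 0.12 and 0.38 ± 0.12 (adjusted p = 0.0151 and 0.0431). The brighter probe read -4.66, -4.55, -4.93 and -4.59 against -4.29, -4.24, -4.05 and -4.25. The rise of Pcdhb20 was lost under quantile normalization, median centring and normexp correction.

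Pcdhb17 was at the edge of the threshold, with a difference of 0.56 ± 0.19 (adjusted p = 0.0494). It read -6.25, -6.08, -6.23 and -6.42 against -5.88, -6.06, -5.21 and -5.6, and lost its call under 15 of 18 alternatives, leaving out any array but PMSG-labelled array 2 among them (adjusted p from 0.0257 to 0.47). Pcdhac2 is the last variable exon of the alpha cluster, and its probe is listed for 4 RefSeq transcripts, so it reads sequence that alpha transcripts share. It read 1.74, 2.08, 1.07 and 1.93 against 2.71, 2.34, 2.27 and 2.59. The labels did not overlap, and the rise of 0.77 ± 0.22 (adjusted p = 0.0294) was lost without control-labelled array 1, PMSG-labelled array 1 or PMSG-labelled array 2, and under median centring.

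The brighter Pcdhga7 probe is likewise listed for 4 RefSeq transcripts of the gamma cluster. Its mean level was 2.58 on control-labelled and 2.69 on PMSG-labelled arrays, a difference of 0.11 ± 0.08 that did not pass (adjusted p = 0.342). The other Pcdhga7 probe, listed for 1 RefSeq transcript, was above background on 0 arrays, so the tested value is that of the shared probe alone. Pcdhgb5 was 1 of 3 tested genes with a negative difference. Its brightest probe differed by -0.18 ± 0.29 (adjusted p = 0.646), and its other probe was lower by 0.54 (difference -0.54 ± 0.14, adjusted p = 0.0176). Large differences with wide errors were found for Pcdhga12 (1.03 ± 0.41, adjusted p = 0.088) and Pcdhga1 (0.75 ± 0.29, adjusted p = 0.0744). Pcdha3, Pcdhga8 and Pcdhga10 were above background on 0 arrays, and Pcdha1, Pcdha2 and Pcdhb6 on too few to test.

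**Figure D3:**
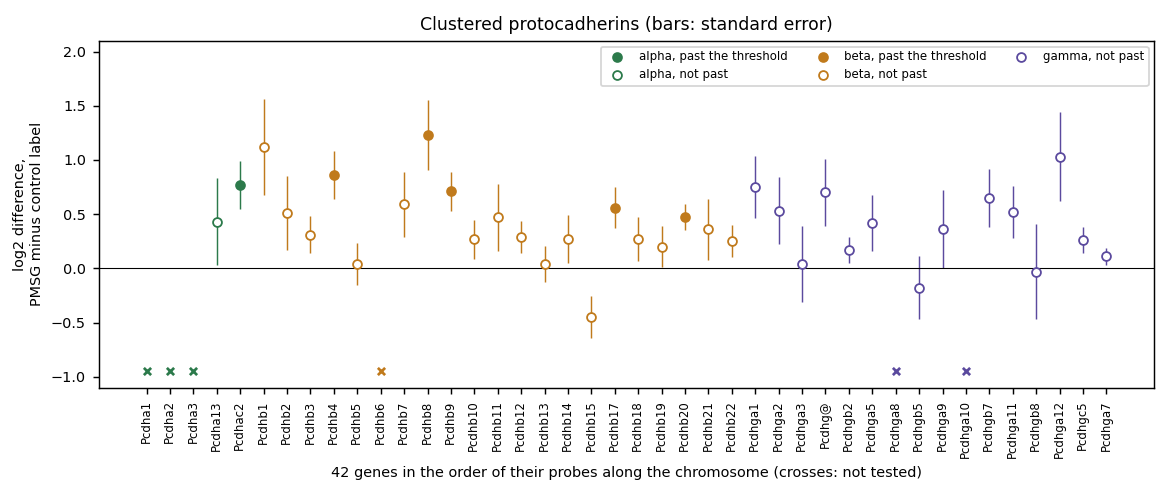
Log2 difference (PMSG label minus control label, with standard error) of the 42 clustered protocadherins, placed in the order of their probes along the chromosome; filled points passed and crosses were not tested. The 6 filled points are 1 alpha and 5 beta genes spread among open ones. Of the 30 open points, 27 lie above 0, beside 8926 of the 14361 over all genes that did not pass.

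The arrays labelled PMSG were uneven for these genes. Set against each gene's control mean, the 36 tested clustered protocadherins had a median of 0.53, 0.24, 0.69 and 0 on PMSG-labelled arrays 1 to 4. PMSG-labelled array 4 was the lowest of its label for 21 of the 36, and array 3 the highest for 16. For the 20 claudins the same medians were 0.9, 0.69, 0.92 and 0.58, and array 4 was the highest of its label for 10 and the lowest for 8. Leaving out PMSG-labelled array 4 took the count of higher clustered protocadherins from 6 to 15, with 1 lower, and leaving out control-labelled array 4 took it to 3. The share of all genes that passed, 34.5%, became 45.2% without PMSG-labelled array 4 and 26.3% without control-labelled array 4. Of these genes 52.3%, 61.8% and 50.8% were higher. Median centring and normexp correction each left 3 higher clustered protocadherins. Over all genes 33.4% and 33.3% passed in these settings, 35.3% and 54.3% of them higher. With normexp correction the differences of Pcdhb8, Pcdhb4, Pcdhb9, Pcdhb17 and Pcdhb20 were 0.55, 0.4, 0.35, 0.24 and 0.27.

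Neuron markers, of cells in which clustered protocadherins are best known, were higher in 4 and lower in 1 of 9 tested. Beside this, 18% of all genes were higher and 16.5% lower. Syt1 was above background on 0 arrays. The mean level of the neuron markers was -2.96 to -2.69 on control-labelled arrays, then -2.35, -2.51, -2.29 and -3 on PMSG-labelled arrays 1 to 4. Oocyte markers rose in 11 of 11, with mean levels of -3.01 to -2.11 and -1.09 to -0.32. PMSG-labelled array 4 was the lowest of its label for both lists. It was also the lowest for the granulosa, theca, Schwann cell, endothelium and surface epithelium lists, and the highest for the oviduct, simple epithelium and fibroblast lists. The part of neurons and oocytes in the protocadherin differences was not tested.

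**Figure D4:**
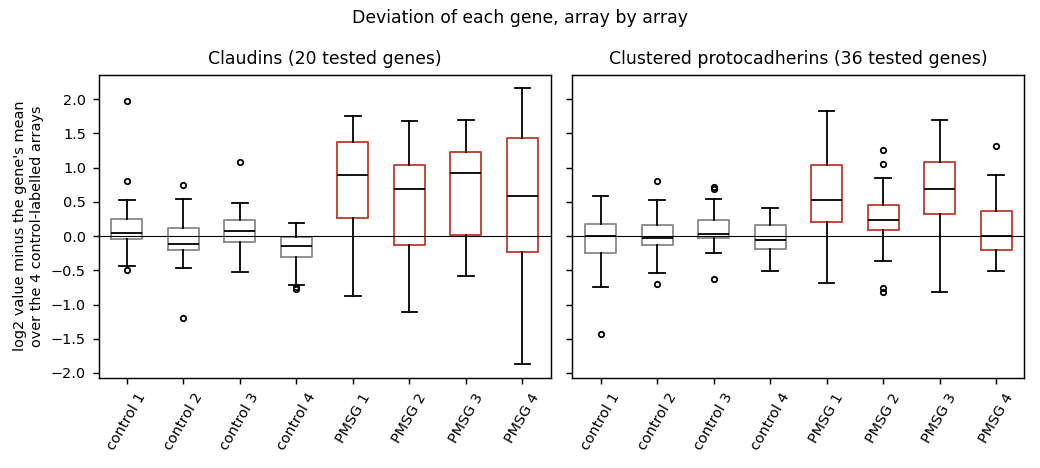
Each tested gene's log2 value minus its mean over the control-labelled arrays, by array, for 20 claudins and 36 clustered protocadherins; boxes span the quartiles, the black line is the median, whiskers reach 1.5 times the box and circles lie beyond. The medians of the claudins stay between 0.58 and 0.92 on all PMSG-labelled arrays, while that of the clustered protocadherins returns to 0 on PMSG-labelled array 4.

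Of the single-gene protocadherins, 4 of 11 fell and 0 rose, beside 16.5% of all genes that fell. Their median was -0.1, and 5 of the 7 that did not pass had positive differences, beside 8926 of 14361 over all genes. Pcdh17, an adhesion protein of axons and synapses, read -0.87, -0.16, -0.64 and -0.47 on control-labelled arrays and -1.92, -1.7, -1.92 and -1.56 on PMSG-labelled ones. It fell without overlap by 1.24 ± 0.17 (difference -1.24, adjusted p = 0.000973), 2.36-fold. Its dimmer probe had the same sign at -0.37 ± 0.19 and did not pass (adjusted p = 0.164), and the mean of both was -0.81. Pcdh20 read -2.24, -2.04, -2.24 and -2.44 against -2.99, -2.67, -3.9 and -3.62. All PMSG-labelled arrays were lower, arrays 3 and 4 by more than the others, and the difference was -1.06 ± 0.26 (adjusted p = 0.0161), or -0.69 with normexp correction.

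Pcdh19, a gene of the X chromosome whose protein works with N-cadherin, read -0.57, -0.56, -0.39 and -0.63 against -1.17, -1.04, -0.95 and -0.83. The fall was small and even, at -0.46 ± 0.11 (adjusted p = 0.0124), and held under all 18 alternatives. Pcdh10, a protocadherin that recruits actin regulators, read -0.63, 0.08, -0.74 and 0.23 against -0.95, -0.78, -1.14 and -1.28. Control-labelled arrays 1 and 3 lay close to the PMSG-labelled ones, and the fall (-0.77 ± 0.24, adjusted p = 0.0406) was lost without control-labelled array 2 or 4 or any PMSG-labelled array. The Pcdh10 call was also lost with array weights and with no filter on dim probes, and its adjusted p went up to 0.105 over 18 alternatives. Pcdh18 differed by 0 ± 0.11, and the rest (Pcdh1, Pcdh7, Pcdh8, Pcdh9, Pcdh11x and Pcdh12) by -0.13 to 0.57 without passing. The 2 probes of Pcdh7 differed in sign, at 0.36 and -0.19.

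The genes that work with these proteins were read from 5 lists, of which 97 genes were on the array and 90 were tested. They passed in 44 cases, 30 higher and 14 lower, beside 34.5% of all genes (18% higher and 16.5% lower). The same shares stand beside the counts of each list below. The median was 0.35, close to the 0.36 of the members. The count of higher partners fell to 17 under median centring. There 33.4% of all genes passed, 35.3% of them higher, beside 52.3% of those that passed with 75th percentile scaling. The count of lower partners fell to 8 without control-labelled array 2, and to 9 without control-labelled array 3, PMSG-labelled array 1 or PMSG-labelled array 3. The share of all genes that passed was 26.9%, 29.5%, 28.4% and 31.7% without these arrays in turn.

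Adherens junction partners were split, with 7 higher and 6 lower of 19 tested. The alpha-catenins, which tie the cadherin complex to actin, went both ways. Ctnna3 read -1.66, -1.3, -0.91 and -0.81 on control-labelled arrays and -4.82, -5.36, -5.57 and -4.7 on PMSG-labelled ones, a difference of -3.94 ± 0.26 (adjusted p = 6.09e-05). This was -2.45 with normexp correction and -1.58 when all Ctnna3 probes were averaged. Ctnna2, the neuronal form, read -0.37, 0.15, -0.36 and -0.33 against 2.7, 2.36, 1.81 and 2.1, a difference of 2.47 ± 0.21 (adjusted p = 0.000166). Ctnna1, the common epithelial form, fell (-0.78 ± 0.13, adjusted p = 0.00277). Ctnnb1, beta-catenin, which binds the tail of classical cadherins, did not pass (-0.18 ± 0.15, adjusted p = 0.38), while its relative Jup rose by 0.38 ± 0.09 (adjusted p = 0.0146) and Pvrl4, a nectin, by 1.2 ± 0.38 (adjusted p = 0.04). The call of Pvrl4 was lost under 9 of 18 alternatives, with adjusted p from 0.0124 to 0.103, among them leaving out control-labelled array 1, 2 or 4 or PMSG-labelled array 1 or 2. That of Jup was lost under median centring.

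Tight junction partners rose in 10 of 29 and fell in 5. Ocln, occludin, which lies in the same strands as claudins, read -0.92, -1.08, -1.09 and -1.5 against 0.16, 0.49, -0.12 and 0.04, a difference of 1.29 ± 0.17 (adjusted p = 0.000917). The scaffold Tjp3 rose by 1.62 ± 0.35 (adjusted p = 0.00825) and Tjp1, ZO-1, by 0.65 ± 0.14 (adjusted p = 0.00783), while Cgnl1, a cingulin relative, fell (-1.23 ± 0.25, adjusted p = 0.00689). Tjp1 did not pass under median centring (adjusted p = 0.0845, the highest over its alternatives, the lowest being 0.00467). Desmosome genes rose in 3 of 11 and fell in 0: desmoplakin, Dsp, by 1.54 ± 0.15, the desmosomal cadherin Dsc2 by 0.7 ± 0.17 and plakophilin 2, Pkp2, by 0.66 ± 0.12 (adjusted p = 0.000257, 0.0142 and 0.00343). Dsc2 did not pass under quantile normalization or median centring. With normexp correction Dsp differed by 0.98 and Cgnl1 by -0.55.

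Other members of the cadherin superfamily rose in 7 of 15 and fell in 2. The largest differences were those of Cdhr4 (1.91 ± 0.41, above background on 1 control-labelled and 3 PMSG-labelled arrays), Cdhr1 (1.84 ± 0.33) and the giant cadherin Fat3 (1.58 ± 0.25), with adjusted p = 0.00814, 0.0037 and 0.00192. Cdhr4 did not pass under quantile normalization or in the authors' deposited values, and with normexp correction Cdhr4 and Fat3 differed by 0.42 and 1.02. Among 16 regulators of the epithelial and mesenchymal states, 3 rose and 1 fell, beside 34.5% of all genes that passed. Those that rose favour the epithelial state: Grhl1 by 1.77 ± 0.22, the splicing factor Esrp1 by 1.29 ± 0.14 and Ovol2 by 1.2 ± 0.2 (adjusted p = 0.000736, 0.00044 and 0.00292). Twist2 fell by 0.84 (difference -0.84 ± 0.26, adjusted p = 0.0365). Other members of the Grhl, Ovol and Esrp families did not pass: Grhl2 differed by 0.54 ± 0.3, Grhl3 by -0.55 ± 0.19, Ovol1 by -0.49 ± 0.21 and Esrp2 by 0.82 ± 0.35. The Snail and Zeb genes, whose site type is marked in the Cldn3 promoter, did not pass: Snai1 differed by -0.37 ± 0.23, Snai2 by 0.05 ± 0.21, Snai3 by 0.25 ± 0.18, Zeb1 by 0.11 ± 0.09 and Zeb2 by -0.09 ± 0.12.

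**Figure D5:**
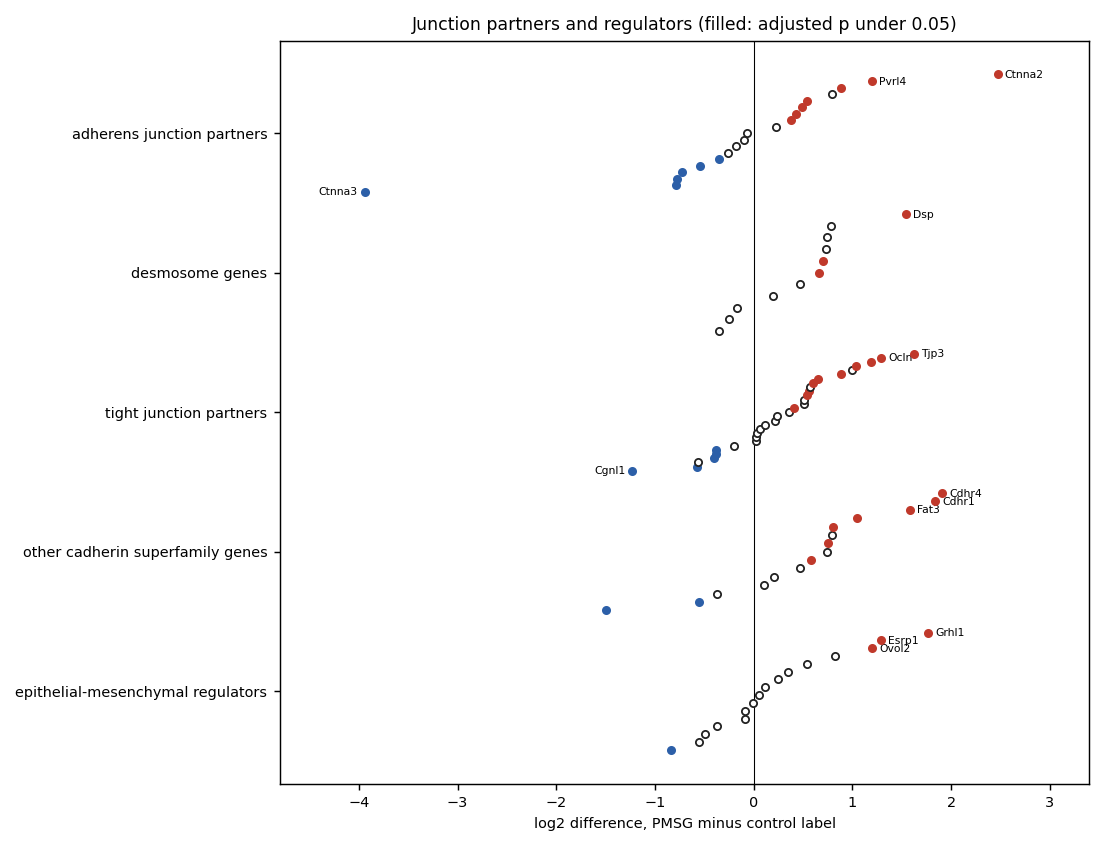
Log2 difference (PMSG label minus control label, horizontal axis) of the 90 tested partner genes in 5 lists; filled points passed, red for higher and blue for lower, and named genes beyond a log2 difference of 1 are labelled. Ctnna3 lies alone at -3.94 and Ctnna2 at 2.47, while tight junction partners lie mostly to the right of 0.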

How the data were processed

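Per the labels' protocols, Cy3-labelled cRNA was made from an oligo-dT primer (500 ng of ovary RNA). Per the file headers, the authors extracted spot intensity with Agilent Feature Extraction 11.5.1.1. A value table deposited by the authors holds log2 values; set against the scanner files, it was scaled to the 75th percentile of each array, and it served here as an alternative.

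From the deposited intensities, processed signals of a probe's usable spots were averaged as log2 values and scaled to the 75th percentile; 17 probes without a usable spot on some array were dropped. Probes well above background in at least 0.5 of spots on at least 4 arrays were tested with limma 3.58.1 in R 4.3.3 without covariates. A gene was read by its brightest probe. The procedure was tested on simulated data, where it recovered 10%, 52%, 92% and 96% of changes of log2 0.5, 1, 2 and 3. Small differences are therefore mostly missed. All arrays shared 1 slide and 1 scan day. The members, lists and tests were chosen with earlier results of these data known. Named members are the 6 with the largest difference per family among those that passed, those with a bound, and 8 known genes (Cldn1, Cldn5, Cldn11, Cdh1, Cdh2, Cdh3, Cdh11, Pcdh12); named partners are the 3 largest per list, with Ctnnb1, Tjp1, Ocln and Jup. Other genes were named after their values were seen. Striated muscle markers were higher in 2 and lower in 1 of 6, theca markers higher in 2 and lower in 2 of 6, and leukocyte markers higher in 5 of 7. Beside these, 18% of all genes were higher and 16.5% lower.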

Additional observations from a re-analysis of the deposited data

Results flagged for a closer look

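In 5 of 112 sets of 4 arrays examined, 1 array lay far from the other 3 of its label; chance gives about 5.6. PMSG-labelled array 4 was the distant one for 2 genes: for Pcdhb4 it read -4.77 while the others read -4.15 to -4.07, and for Cdh11 it read -1.27 while the others read -1.95 to -1.89. Control-labelled array 3 read 2.69 for Cldn3, with the others at 2.28 to 2.34. Control-labelled array 2 read 0.15 for Ctnna2, with the others at -0.37 to -0.33, and control-labelled array 4 read -0.31 for Ctnnb1, with the others at -0.63 to -0.61.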

How the results depend on the processing

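Of the 22 named members that passed, 12 kept their direction and their call under all alternatives in which they could be tested, and 5 lost the call under 4 or more of 18. Among the 12 is Cldn20, which was tested only through the arrays labelled PMSG, so its kept call sets signal against background. The count of members that passed, 24, became 37 with array weights and ranged from 19 to 41 when 1 array was left out, the 41 being without PMSG-labelled array 4. The share of all genes that passed, 34.5%, became 43.8% with array weights and ranged from 26.3% to 45.2% with 1 array left out. The count differing at least 2-fold, 11, became 7 with normexp correction, and with 1 array left out ranged from 10 to 16. Of 17 named partners that passed, 12 did so under every alternative. Partners that passed, 44, ranged from 32 to 54 with 1 array left out. The sign of Pcdh12, which did not pass, turned to 0.03 with normexp correction, and with 1 array left out ranged from -0.21 to 0.04 (0.04 without control-labelled array 3, 0.02 without PMSG-labelled array 4). The cause of these changes was not tested. Same-numbered arrays did not deviate together (correlations 0.0444, 0.0361, 0.183 and -0.0192), so the replicate numbers are not taken to pair the arrays. With the replicate block 21 members passed, 12 at least 2-fold, and 31 partners, 7 of them lower, beside 29.3% of all genes. The 14 members dim on most arrays, and bounds such as that of Cldn20, are limited by background; 4 arrays per label limit the rest.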
